A study of Mus musculus with 4 samples.

Results

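Cytosolic ribosomal proteins are the protein part of the ribosomes that translate nuclear-encoded mRNA. They were taken as all probe sets annotated to 1 gene whose symbol follows the pattern of the large subunit (Rpl and a number, or Rplp0 to Rplp2) or of the small subunit (Rps and a number, or Rpsa). The rule found 47 of the 12488 probe sets, for 33 genes: 21 probe sets for 16 large subunit genes and 26 for 17 small subunit genes. A signal filter, which asked for a mean over the arrays of at least 26.9, kept 23 of these genes (12 large, 11 small) among 4829 genes in all. Each gene is represented by its brightest probe set. Of the 23 genes, Rps4l is a transcribed pseudogene in RefSeq, and the other 22 encode proteins.

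The samples were livers of female mice, killed at 8 months of age in the fed state after 6 months on diet, in 4 groups. These were HSL-null on the high-fat diet (FD, 58% of energy from fat; 4 livers pooled), HSL-null on the normal diet (ND, 11% of energy from fat; 6 livers), wild type on FD (6 livers) and wild type on ND (6 livers). HSL is hormone-sensitive lipase, encoded by Lipe, and the knockout was general rather than specific to the liver. No source used here gives the strain. Each pool was read on 1 Affymetrix MG_U74Av2 array. With no replicate of any group, differences could not be tested, and "higher" and "lower" refer to these pools alone. In pools of tissue, fewer cells of a type and less RNA per cell cannot be told apart.

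A ribosome holds a large and a small subunit, each built from ribosomal RNA and many proteins, most of them present in a single copy. The small subunit reads the mRNA and the large subunit joins amino acids, while a stalk on the large subunit recruits the elongation factors. The mRNAs of ribosomal proteins are abundant in most cells. Most of them begin with a C followed by a run of pyrimidines, the 5′ terminal oligopyrimidine (TOP) tract, through which mTORC1 signalling tunes their translation. Such control acts on ribosome loading and need not alter the mRNA level, which is what these arrays measured.

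The TOP tract is the sequence feature that members are known to share, so 5 start regions are shown here. Rps19, Rps10 and Rpl10a are shown as examples of the members with genotype ratios above 0 on ND and below 0 on FD. Rps18 and Rps7 are further small subunit genes with long runs. Each line gives 50 bases before and 50 after the annotated start of the gene in RefSeq (GRCm38.p6), on the gene's strand, and the capitals mark the longest run of C and T that starts with C.
Rps19, chr7:24884542-24884641, + strand: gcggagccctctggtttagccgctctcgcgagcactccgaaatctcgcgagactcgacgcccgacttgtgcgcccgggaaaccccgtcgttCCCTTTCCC
Rps10, chr17:27635195-27635294, - strand: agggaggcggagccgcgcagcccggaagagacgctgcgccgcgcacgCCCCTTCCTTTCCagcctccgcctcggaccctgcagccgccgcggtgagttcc
Rps18, chr17:33955616-33955715, - strand: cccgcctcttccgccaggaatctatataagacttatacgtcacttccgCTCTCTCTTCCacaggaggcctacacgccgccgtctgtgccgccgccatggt
Rps7, chr12:28635904-28636003, - strand: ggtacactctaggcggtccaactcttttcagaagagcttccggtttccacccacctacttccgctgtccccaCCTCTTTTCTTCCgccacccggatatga
Rpl10a, chr17:28328421-28328520, + strand: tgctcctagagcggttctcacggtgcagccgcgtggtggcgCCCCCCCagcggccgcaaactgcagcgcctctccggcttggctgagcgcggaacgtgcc

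In Rps10 the run of 13 bases began 3 bases before the annotated start, and in Rps18 the run of 11 began 2 bases before it, which is where a TOP tract would lie. In Rps7 the run of 13 began 23 bases after the annotated start. Rpl10a had a run of 7 that began 9 bases before the start and holds C alone. In Rps19 the run of 9 began 42 bases after the start, and it reaches the end of the window and may be longer. An annotated start can differ from the start used in liver, which these arrays do not show. Of the 23 genes, 19 had a start in the promoter table, on 13 chromosomes. A run of 8 or more lay within the 100-base window of 12 of these 19 genes (63.2%), against 28.0% of the 3924 kept genes with a start, and the median longest run was 9.0 bases against 6.0. A run of at least 5 that began within 10 bases of the start was found in 10 of the 19 genes (52.6%), against 32.3% of the kept genes. Among motifs searched on both strands of the 300-base window, CCGGAAG, a core of ETS family sites, was in 7 of 19 members (36.8%) and 19.6% of kept genes. The TATA box TATAAA was in 2 (10.5%) and 8.0%, and AAGATGGC, which resembles YY1 sites, was in 2 (10.5%) and 5.3%. A match describes letters in a window and is no evidence of a bound factor.

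The arrays were scaled to a common mean, the 2% trimmed mean being between 100.085 and 100.094. The HSL-null arrays were run with one lot of solutions and the wild-type arrays with another, on 1 scan day and from 1 chip lot, so solution lot and genotype cannot be told apart. Measurement error could be estimated only where a gene had a further kept probe set. Read that way, the error SD of a log2 ratio was 0.298 (687 genes), and 0.212 for the 234 genes with both probe sets at or above the 75th percentile of signal. Neither value holds the error that all probe sets of an array share, or variation between animals. As checks of the label liver, Alb, the albumin gene, had signals of 4680 on FD and 5382 on ND in HSL-null liver and of 4976 on FD and 6913 on ND in wild type. Lipe had 15.9 on FD and 11.9 on ND in HSL-null liver, against 34.0 on FD and 28.0 on ND in wild type. No source used here places its probe set relative to the deleted part, so this is only a partial check of genotype.

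No gene of the 23 reached a 2-fold ratio in any of the 4 comparisons between the pools. Among all kept genes 2.82% did for HSL-null over wild type on FD and 1.57% for the same on ND. For FD against ND 1.45% did within HSL-null and 3.15% within wild type. At such shares few or none of 23 genes would reach it, so the lack of 2-fold ratios does not set the members apart. The 23 genes had a geometric mean signal of 796.1 in HSL-null on FD, 867.1 in HSL-null on ND, 870.8 in wild type on FD and 902.2 in wild type on ND. Over all 4829 genes it was 129.0, 124.7, 121.8 and 127.9 in the same groups. The HSL-null FD pool thus had the lowest mean for ribosomal proteins and the highest for all genes. Single genes showed this too: 16 of the 23 (8 of 12 large, 8 of 11 small) had their lowest signal in HSL-null on FD, against 20.0% of all kept genes. The highest signal was in wild type on ND for 11 of the 23, against 29.8% of all kept genes.

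**Figure D1:**
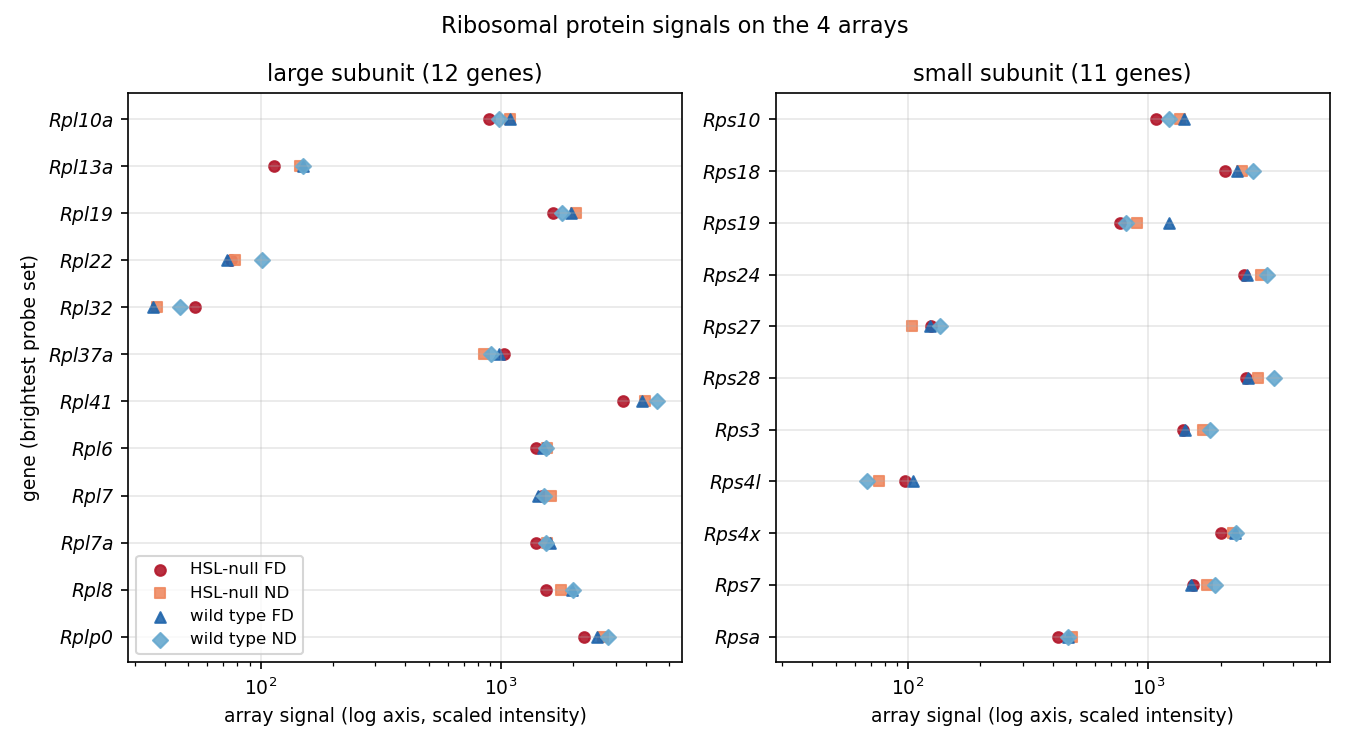
Array signal (scaled intensity, log axis) of the 23 kept ribosomal protein genes, 1 point per array, with no replicates and so no error bars. HSL-null on FD is the lowest point in 16 of the 23 genes, and Rps19 stands out by its high signal of 1213 in wild type on FD.

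The comparison of HSL-null FD with HSL-null ND liver asked what the high-fat diet did without hormone-sensitive lipase. Here 19 of the 23 genes had a ratio below 0, against 42.8% of all kept genes. The median log2 ratio was -0.19 for the large subunit (12 genes, quartiles -0.29 and -0.11) and -0.20 for the small subunit (11 genes, quartiles -0.23 and -0.16), against 0.041 for all genes. None of the 23 differed 1.5-fold, a size that 6.44% of all kept genes passed, and 5 of the 23 lay further from 0 than the probe set SD of 0.298, against 25% of all kept genes. Set against the SD of 0.212 for bright genes, which fits most members better, 13 of the 20 members at or above the 75th percentile of signal lay further from 0, of which 11 were lower and 2 higher on FD, against 31.3% of all genes as bright.

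Rplp0, the base of the stalk that recruits elongation factors, had a signal of 2224 on FD and 2652 on ND in HSL-null liver, a log2 ratio of -0.25. Rpl41, a very short peptide at the interface of the subunits, had 3222 on FD and 3959 on ND in HSL-null liver (-0.30). Rpl19, which helps to join the subunits, had 1646 on FD and 2059 on ND (-0.32). All of these were lower on FD by a like amount. Rpl13a, known in human cells to leave the ribosome and silence inflammatory mRNAs, had the lowest ratio of the large subunit at -0.36, with signals of 114.2 on FD and 146.4 on ND. Rpl8, which lies near the centre where peptide bonds form, had 1536 on FD and 1785 on ND (-0.22).

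In the small subunit Rps10, a protein of the head of the subunit, had 1080 on FD and 1352 on ND in HSL-null liver (-0.32). Rps3, which lines the entry of the mRNA, had 1399 on FD and 1694 on ND (-0.28). Rps18, which reaches towards the tRNA, had 2091 on FD and 2450 on ND (-0.23), and Rps4x, the X-linked form of the protein, had 2007 on FD and 2249 on ND (-0.16). Rpsa, also known as the laminin receptor, had 422.2 on FD and 481.9 on ND (-0.19). These ratios span a narrow band, and the SD between the 23 genes was 0.24, smaller than the SD of 0.32 over all genes.

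The 4 genes with a higher signal on FD in HSL-null liver were Rpl32 (53.3 on FD and 37.1 on ND in HSL-null liver, log2 ratio 0.52), Rpl37a (1034 and 849.2, 0.28), Rps27 (124.4 and 104.3, 0.25) and Rps4l (97.2 and 75.9, 0.36). Rpl32, Rps27 and Rps4l were among the dimmest of the 23, as the plot of signals shows, while Rpl37a was bright. The probe set of Rpl32 carries the suffix _r, which marks relaxed rules in the choice of probes.

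Ribosomal protein probe sets are bright, and bright genes as a whole were lower on the HSL-null FD array. Of the 469 other genes in the top 5% of mean signal, 70.6% had an FD to ND ratio below 0 in HSL-null liver, with a median of -0.091, and 37.5% were lowest on the HSL-null FD array. The 17 ribosomal protein genes in the same top 5% had 16 below 0, a median of -0.23, and 14 lowest on that array. Both sets passed the same cutoff but were not matched in signal above it. Cyclic loess, which removes differences that go with signal, left medians of -0.11 (large) and -0.092 (small), with 19 of 23 genes below 0, and quantile normalization gave -0.12 for both. The part that signal strength had in the shift was otherwise not tested.

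**Figure D2:**
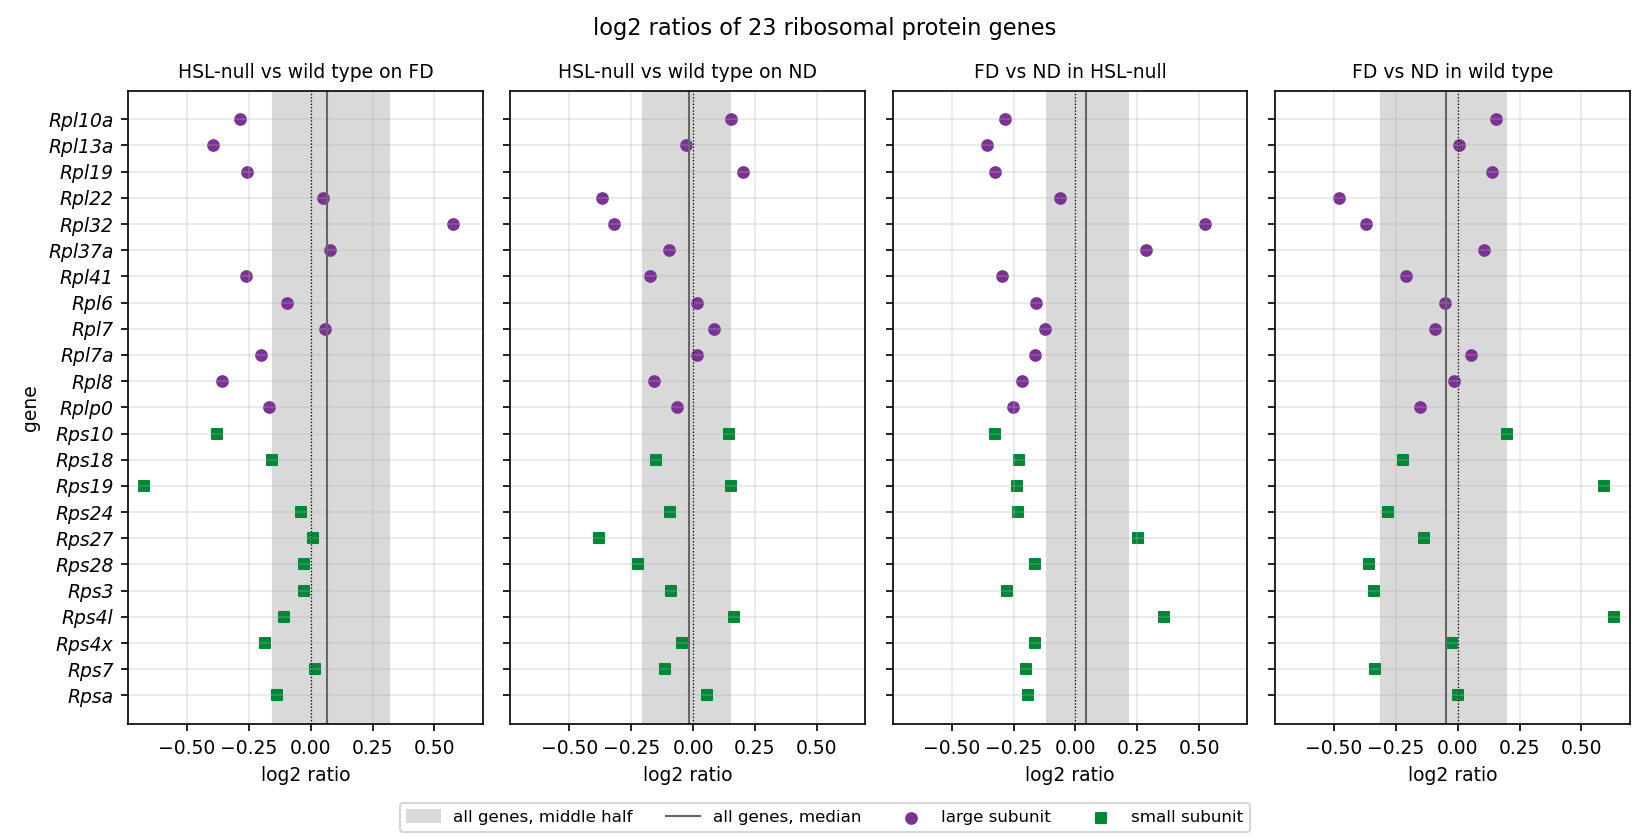
log2 ratios of the 23 kept genes (rows) in the 4 comparisons (panels), with the median and quartile range of all 4829 genes in grey. In FD against ND within HSL-null 19 of the 23 points lie left of 0, most of them left of the grey band, which runs from -0.11 to 0.21.

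The comparison of HSL-null with wild type on FD asked what loss of the lipase did under high-fat feeding. There 17 of the 23 genes had a ratio below 0, against 41.5% of all kept genes. The median log2 ratio was -0.19 for the large subunit (quartiles -0.27 and 0.051) and -0.11 for the small subunit (quartiles -0.17 and -0.028), against 0.067 for all genes. Rps19 alone differed 1.5-fold, as did 12.9% of all kept genes in either direction and 3.77% in its direction, which was lower. Beyond the probe set SD lay 5 of the 23, against 40.5% of all kept genes. Beyond the SD for bright genes lay 7 of the 20 brighter members, and these 7 were lower in HSL-null liver, against 49.5% of all genes as bright. This comparison shares the HSL-null FD array with the diet comparison in HSL-null liver, so the 2 are not independent. Among the 469 other bright genes, 59.9% had a ratio below 0, with a median of -0.064.

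Rps19, a small subunit protein required for maturation of 18S ribosomal RNA and mutated in human Diamond-Blackfan anaemia, had signals of 760.5 on FD and 895.2 on ND in HSL-null liver, against 1213 on FD and 804.4 on ND in wild type. The wild-type FD array was high and the other 3 lay close together. The genotype log2 ratio (HSL-null over wild type) was -0.67 on FD and 0.15 on ND, and its FD to ND ratio was -0.24 in HSL-null liver and 0.59 in wild type. It was read by 1 probe set, so no second value was available. In the RefSeq table Rps19 lies on chromosome 7, 0.49 Mb from Lipe, the targeted gene, and none of the other 22 kept members lies within 1 Mb of it. Whether that position has a part in its ratios was not tested.

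Other genes were lower on FD by less. Rps10 had signals of 1080 in HSL-null and 1406 in wild type on FD (-0.38). Rpl13a had 114.2 in HSL-null and 150.1 in wild type on FD (-0.39), and Rpl8 had 1536 in HSL-null and 1968 in wild type on FD (-0.36). Rpl10a, the large subunit protein of the mobile stalk beside the exit of tRNA, had 892.4 in HSL-null and 1089 in wild type on FD (-0.29), and its second kept probe set, of a family type, gave -0.16. Rps28, near the exit of the mRNA, disagreed between its 2 kept probe sets, with -0.029 at the brighter and -0.45 at the other. Rps4x had -0.19 and Rpsa -0.14 on FD, both within the probe set SD.

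The large subunit genes at the upper end on FD were Rpl32 (53.3 in HSL-null and 35.8 in wild type, log2 ratio 0.57), Rpl37a (1034 in HSL-null and 978.5 in wild type, 0.079) and Rpl7 (1478 in HSL-null and 1421 in wild type, 0.057). In the small subunit they were Rps7, which acts early in processing of ribosomal RNA (1529 and 1510, 0.018), Rps27, a zinc finger protein (124.4 and 123.6, 0.0093), and Rps3 (1399 and 1425, -0.027). Apart from Rpl32, these genes had nearly equal signals in both genotypes.

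For HSL-null over wild type on ND the members spread least, with an SD between the 23 genes of 0.17, against 0.24 to 0.28 in the other comparisons. Here 14 of the 23 genes had a ratio below 0, against 52.6% of all kept genes, and none differed 1.5-fold, where 6.73% of all kept genes did. The median log2 ratio was -0.049 for the large subunit (quartiles -0.16 and 0.032) and -0.089 for the small subunit (quartiles -0.13 and 0.10), against -0.018 for all genes, and 3 of the 23 genes lay beyond the probe set SD, against 28.2% of all kept genes. Beyond the SD for bright genes lay 2 of the 20 brighter members, against 33.4% of all genes as bright. Of the other bright genes 49.5% were below 0. With median scaling, which moved the median of all genes to 0.11, the medians of the subunits became 0.082 and 0.041, so their direction on ND depends on the scaling.

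Rps27 had signals of 104.3 in HSL-null and 135.9 in wild type on ND (log2 ratio -0.38), and Rpl22, which ribosomes can do without and which developing T cells need, had 78.5 in HSL-null and 101.3 in wild type (-0.37). Rpl32 had 37.1 in HSL-null and 46.3 in wild type (-0.32). All 3 were dim and lay furthest below 0. At the other end were Rpl19 (2059 in HSL-null and 1788 in wild type on ND, 0.20), Rpl10a (1086 and 977.8, 0.15), Rps4l (75.9 and 67.7, 0.16), Rps19 (895.2 and 804.4, 0.15) and Rps10 (1352 and 1223, 0.14). Rpl41 was at -0.17, Rps28 at -0.22 and Rps18 at -0.15, and all 3 had their highest signal in wild type on ND.

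The 2 genotype ratios share no array. Across the 23 genes Pearson's r between them was -0.56 and Spearman's rho -0.48, while across all 4829 genes these were 0.032 and -0.070. Genes are not independent replicates, and all points come from the same 4 arrays, so this is a description. Rpl32, Rpl22 and Rps27 had lower signals in HSL-null than in wild type on ND and not on FD, while Rpl19, Rpl10a, Rps10 and Rps19 were higher on ND and lower on FD. The difference between the 2 genotype ratios, FD minus ND, had a median of -0.11 for the large subunit and -0.0079 for the small subunit, against 0.092 for all genes. It was below 0 for 15 of the 23 genes, against 41.7% of all kept genes. None of the 23 passed 2-fold, as 6.32% of all kept genes did, and 2 passed 1.5-fold, Rps19 (-0.83) and Rpl32 (0.89), as 22.6% of all kept genes did.

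**Figure D3:**
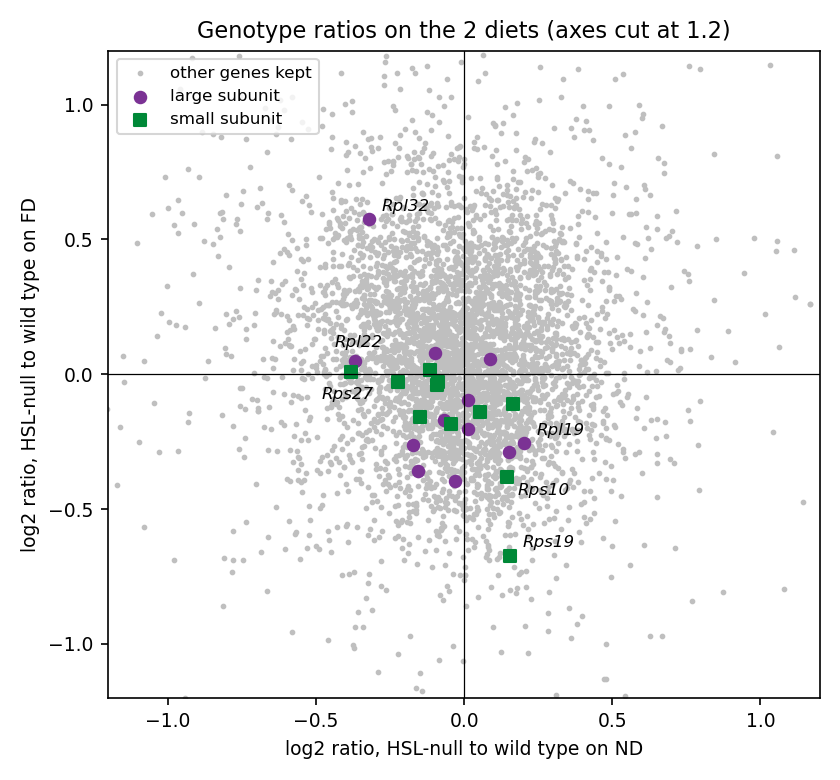
Genotype log2 ratio (HSL-null over wild type) on FD (vertical) against ND (horizontal), 1 point per gene, with ribosomal protein genes in colour and the other kept genes in grey (the axes leave out the most extreme of them). Most coloured points lie close to the centre and below the horizontal line. Rps19, at -0.67 on FD, and Rpl32, at 0.57, are furthest from that line.

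In wild-type liver the high-fat diet went with both higher and lower ribosomal protein signals. Of the 23 genes 14 had a ratio below 0, against 55.7% of all kept genes. The median log2 ratio was -0.033 for the large subunit (quartiles -0.17 and 0.067) and -0.14 for the small subunit (quartiles -0.31 and 0.10), against -0.047 for all genes. Rps19 and Rps4l were 1.5-fold higher, so 2 of 23 passed a size that 14.0% of all kept genes passed in either direction and 4.56% as higher. Beyond the probe set SD lay 7 of the 23, against 43.4% of all kept genes, and beyond the SD for bright genes 6 of the 20 brighter members, against 53.1% of all genes as bright. Of the other bright genes 52.5% were below 0. With median scaling the medians became 0.11 and 0.0048, so the direction depends on the scaling here too. Among bright small subunit genes alone, in the top 5% of signal, the median was -0.25 over 8 genes.

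The small subunit was split. Rps28 (2594 on FD and 3325 on ND in wild type, log2 ratio -0.36 at a family-type probe set, but -0.14 at its second kept probe set), Rps3 (1425 and 1802, -0.34), Rps7 (1510 and 1902, -0.33), Rps24 (2572 and 3129, -0.28), a protein needed for processing of ribosomal RNA, and Rps18 (2332 and 2717, -0.22) had lower signals on FD. Rps4x (-0.022) and Rpsa (0.0028) had nearly the same signal on both diets. Rps10 (1406 on FD and 1223 on ND, 0.20), Rps19 (0.59) and Rps4l (104.8 and 67.7, 0.63) had higher signals on FD. In the large subunit Rpl22 was at -0.48 (72.6 on FD and 101.3 on ND in wild type), Rpl32 at -0.37 and Rpl41 at -0.21, and Rpl10a (0.16), Rpl19 (0.14) and Rpl37a (0.11) were at the upper end.

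Of the genes not yet described, Rpl6 and Rpl7a, both of the large subunit, had log2 ratios between -0.20 and 0.054 in the 4 comparisons. Rpl6 had signals of 1396 on FD and 1559 on ND in HSL-null liver and of 1491 on FD and 1544 on ND in wild type. Rpl7a had 1396 on FD and 1563 on ND in HSL-null liver and 1607 on FD and 1548 on ND in wild type. Both were lowest in HSL-null on FD.

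Of the 33 genes, 10 had no probe set above the filter. They were Rpl35a, Rpl38, Rpl39 and Rpl39l of the large subunit and Rps13, Rps14, Rps15, Rps20, Rps27l and Rps29 of the small subunit. The highest signal of any of them was 27.4, for Rps29 in HSL-null on FD, and Rpl39, Rps14, Rps15 and Rps27l were at or under the floor of 6.1 on all 4 arrays. Most ribosomal protein genes are transcribed in every cell, so such a value alone does not show that a gene was silent. Rpl39l and Rps27l are paralogs of Rpl39 and Rps27. Genes with a bright probe set had dim ones too: Rps4x had 2007 to 2318 at its brightest and at most 22.2 at its 4 others, Rps24 had 2504 to 3129 at one and at most 13.3 at the other, and Rpl7 had 1421 to 1609 at one and at most 6.5 at the other. A second probe set of Rpl19, under the filter, had 7.2 on FD and 24.6 on ND in HSL-null liver and 7.5 on FD and 25.7 on ND in wild type, while the brightest had log2 ratios of -0.32 and 0.14 for the same comparisons. Rpl35a had 7.5 on FD and 9.3 on ND in HSL-null liver and 15.8 on FD and 4.9 on ND in wild type.

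Many ribosomal protein genes have processed pseudogenes of near-identical sequence. A further 38 probe sets were annotated to several genes that include a ribosomal protein, so they are not members and are not named, and 8 genes that were to be described whatever their values (Rpl3, Rpl5, Rpl10, Rpl11, Rplp1, Rplp2, Rps6, Rps27a) had no probe set of their own. The 32 of these probe sets above the filter had medians of -0.22 for FD against ND within HSL-null (25 of 32 below 0), -0.15 for HSL-null over wild type on FD (25 below 0), -0.072 for HSL-null over wild type on ND (22 below 0) and -0.14 for FD against ND within wild type (26 below 0). In the same order, 42.8%, 41.5%, 52.6% and 55.7% of all kept genes were below 0. For the other bright genes the shares were 70.6%, 59.9%, 49.5% and 52.5%. The 32 are separate probe sets on the same arrays, so the error shared on an array is in them as well. How the members' probe sets share signal with pseudogenes was not tested.

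Other genes of translation were set beside the ribosomal proteins. Rps3a1, a small subunit gene whose symbol lies outside the rule, had 1884 on FD and 2248 on ND in HSL-null liver. In wild type it had 2026 on FD and 2379 on ND. Its log2 ratios were -0.25 for FD against ND within HSL-null and -0.10 for HSL-null over wild type on FD. Rpl7l1, the other kept gene outside the rule, was dim, with signals of 36.0 to 46.9. It went the other way, with log2 ratios of 0.019 and 0.35 in the same comparisons. A list of translation factors and related genes had a median of -0.088 for FD against ND within HSL-null, with 19 of 27 kept genes below 0. For HSL-null over wild type on FD it was -0.075, with 17 below 0. Whether each gene of this list has a TOP tract was not tested. Of all kept genes 42.8% and 41.5% were below 0 in these comparisons. Of the other bright genes 70.6% and 59.9% were, with medians of -0.091 and -0.064, close to those of the translation list. Eef2, which moves the ribosome along the mRNA, had log2 ratios of -0.32 and -0.15 in these comparisons, Eef1a1, which delivers tRNA, -0.23 and -0.051, and Pabpc1, which binds the poly(A) tail, -0.28 and 0.038. Tpt1, a classical TOP mRNA, had -0.21 and -0.00080, and Eif4ebp2, a repressor of translation initiation, -0.32 and -0.034. At the upper end for FD against ND within HSL-null were Eif4g2, with 79.8 on FD and 60.5 on ND (0.40), the RNA helicase gene Eif4a1 (133.0 and 107.7, 0.30) and Eif3m (425.8 and 374.7, 0.18). For HSL-null over wild type on FD they were Nap1l1 (113.9 in HSL-null and 80.6 in wild type, 0.50), Eif1a (215.6 and 152.8, 0.50) and Eif5 (418.8 and 301.1, 0.48), and the lowest were Eif3k (257.9 and 353.2, -0.45), Eef1b2 (34.4 and 46.6, -0.44) and Eif3e (105.4 and 138.2, -0.39). None of the 27 passed 1.5-fold in either comparison.

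Genes of ribosome assembly and RNA polymerase I had medians on the other side of 0 from the ribosomal proteins in both comparisons that hold the HSL-null FD array. Their median was 0.10 for FD against ND within HSL-null, with 19 of 28 kept genes above 0, against 0.041 and 56.9% above 0 for all genes. It was 0.21 for HSL-null over wild type on FD, with 21 of 28 above 0, against 0.067 and 58.3% above 0 for all genes. The signals of the assembly genes ran from 22.9 (Pes1, wild type on FD) to 727.9 (Nop10, wild type on ND). They were thus dimmer than most ribosomal protein genes. The other bright genes had medians of -0.091 and -0.064 in the same comparisons. The part of signal strength in this contrast was not tested. Ddx21, an RNA helicase of the nucleolus, had 52.7 in HSL-null and 23.9 in wild type on FD (log2 ratio 1.14), and Rrs1, a factor for assembly of the large subunit, had 69.6 in HSL-null and 40.5 in wild type (0.78). These 2 of the 28 were past 1.5-fold on FD, a share no larger than the 9.17% of all kept genes that were higher by that size. At the lower end were Imp3 (293.4 in HSL-null and 417.3 in wild type on FD, -0.51) and Nhp2 (188.9 and 224.7, -0.25).

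**Figure D4:**
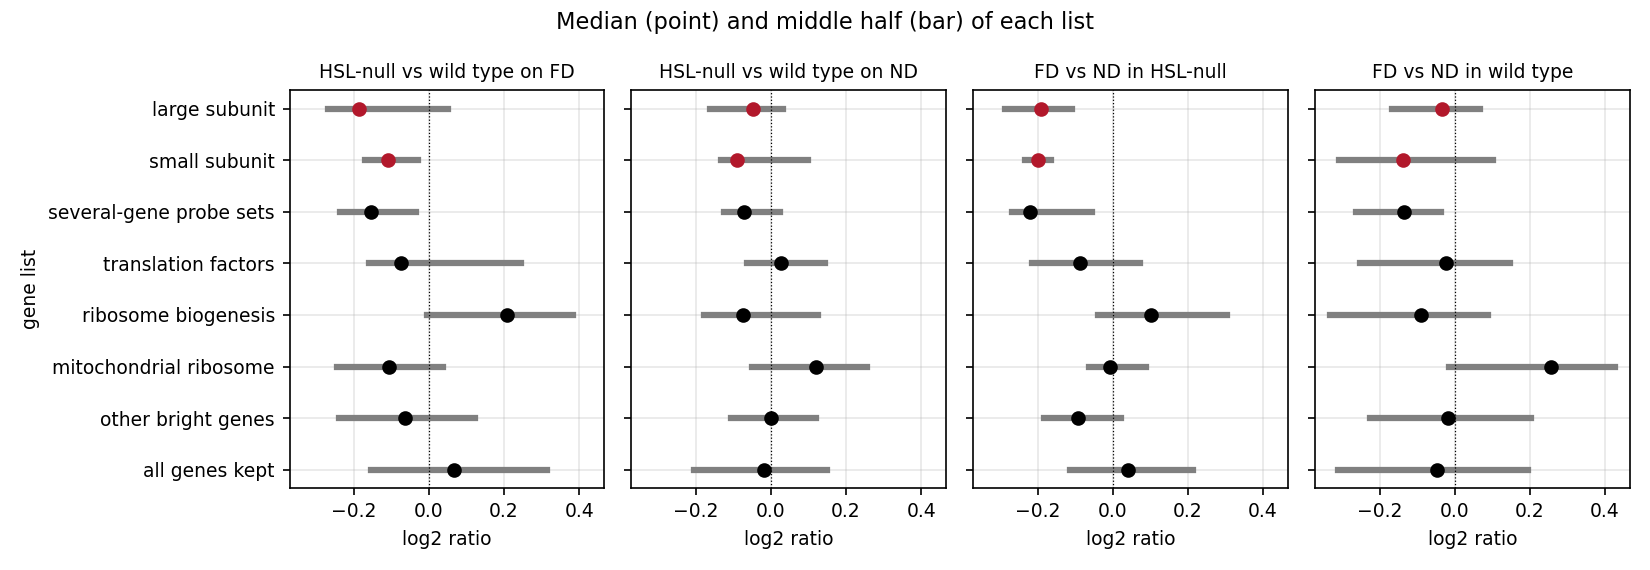
Median log2 ratio (point) and quartile range (bar) of each gene list in the 4 comparisons, with ribosomal proteins in red. For FD against ND within HSL-null both subunits and the probe sets of several genes lie at -0.19 to -0.22, left of the other bright genes at -0.091 and of ribosome biogenesis at 0.10. The ribosome biogenesis genes were dimmer than most ribosomal protein genes.

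Ribosomal RNA was seen only through the 3 control probe sets for 18S RNA, the RNA of the small subunit. Their mean was 99.1 on FD and 307.1 on ND in HSL-null liver, and 84.2 on FD and 192.2 on ND in wild type. This control signal was lower on FD in both genotypes. Whether it follows the amount of ribosomal RNA in the liver was not tested. The ratio of 3′ to 5′ signal was 0.838 to 0.867 for Gapdh and 1.315 to 1.492 for beta-actin over the 4 arrays. For 18S RNA it was 1.28 on FD and 0.649 on ND in HSL-null liver and 1.366 on FD and 1.318 on ND in wild type, so the HSL-null ND array, against which FD is set in HSL-null liver, stood apart in it. Pancreas markers, 7 kept genes, had a summed signal of 383.8 on FD and 330.5 on ND in HSL-null liver and of 341.0 on FD and 967.8 on ND in wild type, so the wild-type ND array, which was highest for 11 of the 23 genes, also stood out there. Macrophage markers, 12 kept genes, summed to 3705 on FD and 3868 on ND in HSL-null liver and to 2908 on FD and 4335 on ND in wild type, and hepatocyte markers, 10 kept genes, to 20067 on FD and 22102 on ND in HSL-null liver and to 19128 on FD and 25423 on ND in wild type. Hepatocyte marker ratios for FD against ND had a median of -0.18 in HSL-null liver (7 of 10 below 0, against 42.8% of all kept genes). In wild type the hepatocyte median was -0.43 (10 of 10 below 0, against 55.7%). Between the genotypes on FD it was 0.011 (4 of 10 below 0, against 41.5%). Red blood cell markers, 5 kept genes, summed to 3702 on FD and 3388 on ND in HSL-null liver and to 4261 on FD and 3964 on ND in wild type. For FD against ND within HSL-null 5 of 5 were above 0, with a median of 0.21, against 56.9% of all kept genes. Stellate cell markers, 6 kept genes, summed to 1730 on FD and 1718 on ND in HSL-null liver and to 1372 on FD and 1671 on ND in wild type. Of these 5 of 6 were above 0 for FD against ND within HSL-null, with a median of 0.33, against 56.9% of all kept genes. For HSL-null over wild type on FD 6 of 6 were, with a median of 0.61, against 58.3% of all kept genes. In that comparison 12 of 12 macrophage markers were also above 0, with a median of 0.27. The 5 kept genes listed as lymphocyte markers were Ptprc, Cd79b, Cd52, Coro1a and Cd74. Their signals summed to 811.8 on FD and 1109 on ND in HSL-null liver. In wild type they summed to 999.8 on FD and 1239 on ND. Yet 4 of these 5 lymphocyte markers were above 0 for HSL-null over wild type on FD, with a median of 0.30, against 58.3% of all kept genes. For FD against ND within HSL-null 3 of 5 were, with a median of 0.038, against 56.9%. Cd74, the brightest of the 5, was at -0.52 and -0.64 in these comparisons. Whether these 5 genes are particular to lymphocytes in liver was not tested. The part of the marker values in the ribosomal protein ratios was not tested.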

How the data were processed

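Per the labels' protocols, total RNA of pooled livers was labelled with biotin and hybridised to 4 arrays, 1 per group. The table deposited by the authors holds 1 signal intensity per probe set on a linear scale, from the MAS5 algorithm per the submitters' processing notes, which name no version. Run settings come from separate files deposited by the authors and hold no expression. Signals under 6.1, the 25th percentile of the non-control values, were set to that value before log2, and 5615 probe sets with a mean of at least 26.9, the median of the means, were kept. Of the 12422 non-control probe sets, 10833 had 1 gene, and 10817 of them were found in the RefSeq table of GRCm38.p6. Counts used a 2-fold ratio, a log2 ratio of 1, and a 1.5-fold ratio, a log2 ratio of 0.585. With 1 array per group no test was made, and precision is limited by the number of arrays. The named genes were any past 2-fold, the 3 highest and 3 lowest of each subunit in each comparison and in the difference of the genotype ratios, and a fixed list chosen for roles. Rpl6, Rpl7a and Rps24 were added after their values were seen, to give every kept member. From each other list the named genes come from its 3 highest and 3 lowest in a comparison. The promoter motifs and the run of 8 were also chosen after the data were seen. The members and lists were chosen with earlier results of these data known. The steps were tested on simulated data. Python 3.11.15, pandas 2.3.3, numpy 2.4.6, R 4.3.3 and limma 3.58.1 were used. Alternatives were 9 planned settings and 2 added after the data were seen. Protein sequences were not used here.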

Additional observations from a re-analysis of the deposited data

Results flagged for a closer look

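For 2 genes the ratio of HSL-null to wild type had opposite signs on the 2 diets and the ratios differed by more than 1.5-fold, with 1 array per group and no test of the difference. Rps19 had log2 ratios of -0.67 on FD and 0.15 on ND, a difference of -0.83, which lay between -1.13 and -0.73 over the planned settings. Rps19 lies 0.49 Mb from Lipe, and the part of that was not tested. Rpl32 had 0.57 on FD and -0.32 on ND, a difference of 0.89, which lay between 0.60 and 0.89 over the planned settings that kept it. Its signals were 35.8 to 53.3, at a probe set with a suffix, and the stricter filter on signal and the setting without suffix probe sets left it out.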

How the results depend on the processing

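No paired analysis was possible because each group had 1 array. Leaving out a replicate was not possible for the same reason. The medians of the subunits kept their direction for FD against ND within HSL-null and for HSL-null over wild type on FD under all settings tried, with ranges of -0.35 to -0.11 and -0.35 to -0.10 (large) and of -0.36 to -0.092 and -0.28 to -0.029 (small). Under median scaling the all-gene medians became -0.10 on FD and 0.11 on ND for HSL-null over wild type, -0.12 in HSL-null and 0.096 in wild type for FD over ND, and -0.21 for the difference of the genotype ratios. The subunits then had -0.35 (large) and -0.28 (small) for HSL-null over wild type on FD, 0.082 and 0.041 for the same on ND, -0.35 and -0.36 for FD against ND within HSL-null, 0.11 and 0.0048 for FD against ND in wild type, and -0.40 and -0.31 for the difference of the genotype ratios, where 1 gene then passed 2-fold and 6 passed 1.5-fold. The cause was not tested. For FD against ND in wild type, the small subunit median was 0.0 with no filter and -0.25 with the filter at the 95th percentile, and 1.5-fold genes numbered 1 with quantile normalization, 0 with a pseudocount of 16, 6 with no filter, and 1 with the filters at the 75th and 95th percentiles, without suffix probe sets and without the pseudogene. With no filter, which adds dim genes, 1 gene passed 1.5-fold for HSL-null over wild type on ND, 3 passed 1.5-fold and 1 passed 2-fold on FD, 1 passed 2-fold for FD against ND in wild type, and 5 and 1 passed 1.5-fold and 2-fold for the difference. That difference had 1 gene past 1.5-fold with the filters at the 75th and 95th percentiles and without suffix probe sets, where its small subunit median was -0.14.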

Other observations

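Mitochondrial ribosomal proteins are nuclear-encoded proteins of the ribosome that translates mitochondrial mRNA, and 57 of the 61 on the array passed the filter. For FD against ND their median log2 ratio was -0.0067 in HSL-null liver, with 28 above 0 and 29 below 0, and 0.26 in wild type, with 42 above 0 and 15 below 0. Over all kept genes the medians were 0.041 in HSL-null liver and -0.047 in wild type, with 42.8% and 55.7% below 0. In wild type 5 of the 57 were past 1.5-fold higher, where 4.56% of all kept genes were. Mrps10 had 80.5 on FD and 105.1 on ND in HSL-null liver, and 141.0 on FD and 57.4 on ND in wild type, the highest FD to ND ratio of the list in wild type at 1.30 (log2). Mrps25 came next at 1.21, with 97.0 on FD and 41.9 on ND in wild type, and Mrps2 was lowest at -0.64, with 57.4 on FD and 89.3 on ND. For HSL-null over wild type the median of the list was -0.11 on FD (38 of 57 below 0) and 0.12 on ND (17 of 57 below 0). Over all kept genes it was 0.067 on FD (41.5% below 0) and -0.018 on ND (52.6% below 0). Mrps12 had 107.0 in HSL-null and 239.5 in wild type on FD (-1.16). Each gene was measured once per group, the comparisons share arrays, and whether the diet ratios differ between genotypes was not tested.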
